A study of Mus musculus with 8 samples.

Results

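Cytosolic ribosomal proteins are the protein parts of the ribosome that translates nuclear-encoded mRNA. Their genes were taken from the expression table by name, as symbols beginning with Rpl or Rps followed by a number and an optional a, x, l or y, together with Rpsa and Rplp0 to Rplp2, with pseudogene names left out and a mean of at least 10 normalized counts over the 8 libraries required. The rule found 75 of 11233 listed genes, 44 of the large subunit and 31 of the small subunit, and all 75 passed the filter on the mean. The bulk RNA-Seq libraries came from conventional CD4+ T cells (Tconv cells), sorted from subcutaneous tumors of the mouse melanoma line B16-F10 as CCR8+ or CCR8- cells, with 4 libraries of each. All 8 libraries shared the genotype and the treatment. The mice were Foxp3EGFP-DTR animals, in which the endogenous Foxp3 gene also drives EGFP and the human diphtheria toxin receptor, and all received diphtheria toxin (DTx), which depletes regulatory T (Treg) cells. Tconv cells were gated as EGFP-negative in both groups, so that cells then expressing Foxp3 were left out. CCR8 is a chemokine receptor, and its surface protein set the sort.

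The ribosome is assembled from a large subunit, which joins amino acids, and a small subunit, which reads the mRNA. Apart from the stalk proteins made from Rplp1 and Rplp2, which each ribosome holds in more copies, the proteins are taken up in equal numbers, yet their mRNAs need not be equally abundant, since translation and protein decay also set the supply. Most ribosomal protein mRNAs begin with a run of pyrimidines (C and T in the DNA), through which the kinase mTOR adjusts their translation as a group. Activated T cells make more ribosomes as they grow and divide.

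The start regions below are shown as background on the pyrimidine runs. Their relation to the mRNA levels was not tested. The regions are 30-base windows around the annotated start from RefSeq on GRCm38.p6, read on the strand of the gene. Capitals mark the longest unbroken run of C and T in each window, or the first of them where runs tie. The first 15 bases of each window lie before the annotated start. The marked runs of Rps27l, Rpl22 and Rpl4 lie wholly in these bases, outside the annotated mRNA, and that of Rps18 spans the start. In the second Rpl22 window an unmarked run of equal length lies after the start, within the annotated mRNA. Rps27l, Rps26, Rpl39, Rpl36a, Rpl22 and Rpl10 gave high fold changes, Rpl13a the lowest of the large subunit, and Rpl4 and Rps18 were among the most abundant.
Rps27l, chr9:66946071-66946100, plus strand: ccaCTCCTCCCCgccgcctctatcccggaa
Rps27l, second annotated start, chr9:66946398-66946427, plus strand: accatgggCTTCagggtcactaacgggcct
Rps26, chr10:128626492-128626521, minus strand: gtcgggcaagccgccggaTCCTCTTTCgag
Rpl39, chrX:37085208-37085237, minus strand: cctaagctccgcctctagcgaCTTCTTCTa
Rpl36a, chrX:134585639-134585668, plus strand: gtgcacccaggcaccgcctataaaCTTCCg
Rpl22, chr4:152325711-152325740, plus strand: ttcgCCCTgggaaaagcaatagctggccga
Rpl22, second annotated start, chr4:152324421-152324450, plus strand: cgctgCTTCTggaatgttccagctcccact
Rpl10, chrX:74270801-74270830, plus strand: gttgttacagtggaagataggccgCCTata
Rpl13a, chr7:45128731-45128760, minus strand: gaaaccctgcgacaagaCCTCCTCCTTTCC
Rpl4, chr9:64173372-64173401, plus strand: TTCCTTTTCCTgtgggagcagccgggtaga
Rps18, chr17:33955651-33955680, minus strand: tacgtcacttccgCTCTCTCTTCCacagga

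A start window was matched by symbol for 55 of the 75 genes, in 65 windows. Within 20 bases to either side of the annotated start, on the strand of the gene only, a run of at least 8 letters made up of C and T was found in 27 of the 65 windows (41.5%) and in 5272 of 32851 windows of all genes (16%). A run of at least 5 was found in 76.9% of the ribosomal protein windows and in 57.5% of all windows. The run lengths were chosen after the windows were seen, and annotated starts can differ by several bases from those used in these cells. The 27 genes with a run of at least 8 had a median log2 fold change (CCR8+ over CCR8- cells) of 0.20 and the 28 without it 0.19, or 0.15 and 0.10 without the library CCR8- replicate 1.

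Sequencing depth ran from 12067780 to 17802628 reads per library, recovered from the deposited values, of which 496548 to 825046 belonged to ribosomal protein genes. Counting error of the reads was therefore small for all of these genes other than Rps4l. Losses of mRNA before sequencing are not measured by read depth. CCR8- replicate 1 stood apart from the other libraries. It detected the fewest genes, 8569 against 9544 to 10882 in the other 7 libraries. In it 242 genes were listed at 0 while reaching at least 100 in each of the other 7, against 0 to 44 such genes in any other library. Ccr8 mRNA was higher in all 4 CCR8+ libraries, at 6970 to 42508 against 1293 to 6214 normalized counts. No gene passed an adjusted p under 0.05 in the limma fit, among 11032 tested. Values without CCR8- replicate 1 are given beside the results below that it moved most. The study describes the libraries of each group as biological replicates, all collected on the same day. Whether each came from 1 mouse or from pooled mice, and whether the CCR8+ and CCR8- libraries of a number shared mice, is not stated in the sources used here.

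Transcripts of the ribosomal protein genes made up 4.66% ± 0.757 of all normalized counts in CCR8- cells and 4.85% ± 0.621 in CCR8+ cells (SD, n = 4 each), and the groups overlapped. Large subunit genes took 2.78% ± 0.463 of the counts in CCR8- cells and 2.87% ± 0.383 in CCR8+ cells. The small subunit share was 1.88% ± 0.294 and 1.98% ± 0.239. The mean differences, 0.0907 and 0.0976 percentage points, were below the SD of either group. In such bulk libraries, a smaller part of cells rich in these mRNAs and less mRNA per cell cannot be told apart.

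By library, the large subunit share was 2.44, 2.68, 2.55 and 3.46% in CCR8- replicates 1 to 4 and 2.42, 2.71, 3.27 and 3.09% in CCR8+ replicates 1 to 4. The small subunit share was 1.70, 1.80, 1.72 and 2.32% in CCR8- replicates and 1.70, 1.88, 2.24 and 2.10% in CCR8+ replicates. The highest library of the series was a CCR8- library for either subunit, and the groups overlapped over most of their range. Without CCR8- replicate 1 the CCR8- means were 2.90% ± 0.495 and 1.94% ± 0.326 (SD, n = 3). The mean difference of the large subunit (CCR8+ minus CCR8-) then turned to -0.0224 percentage points, and it was -0.0432 without CCR8+ replicate 3, so that its direction rested on single libraries. That of the small subunit was 0.0355 and 0.0110 in the same order. A share of all counts does not depend on the scaling between libraries.

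**Figure D1:**
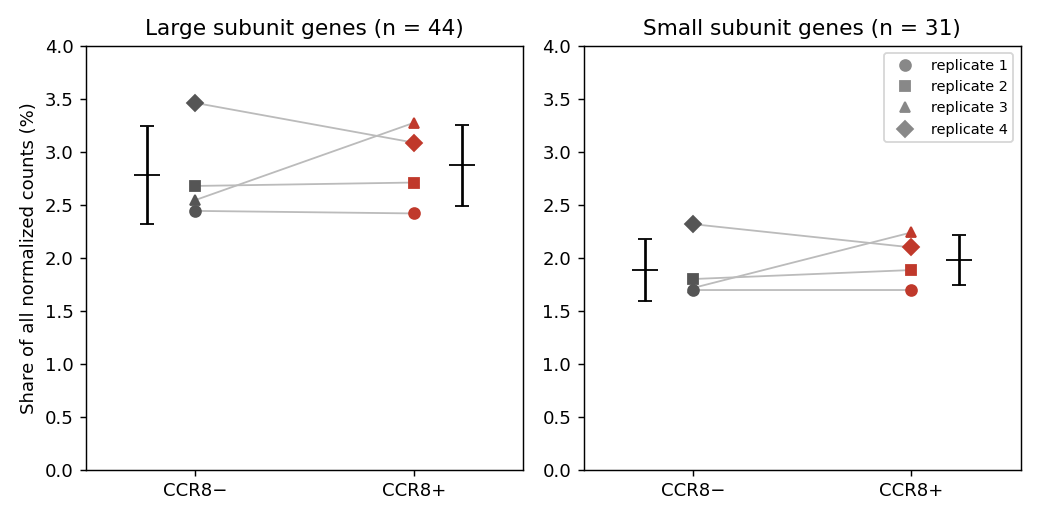
Share of all normalized counts (%, y axis) taken by large subunit (left) and small subunit (right) genes in CCR8- (gray) and CCR8+ (red) libraries. Each symbol is a library, gray lines join libraries with the same replicate number, and the black bars give the mean ± SD of 4 libraries. CCR8- replicate 4 is highest in both panels, and the line of replicate 3 is the steepest.

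Within same-numbered libraries the differences did not have a common direction. The ratio of the large subunit share in CCR8+ over CCR8- cells was 0.990, 1.01, 1.29 and 0.892 for numbers 1 to 4. For the small subunit it was 1.0001, 1.05, 1.31 and 0.905. In both subunits the large ratio came from number 3, where the CCR8- library was low and the CCR8+ library high, and number 4 went the other way. These numbers are not stated to tie libraries to a mouse, and 4 pairs could not give an exact two-sided p below 0.125.

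The balance between the subunits varied little. The summed counts of large over small subunit genes lay between 1.43 and 1.49 in all 8 libraries. The CCR8- values were 1.44, 1.49, 1.48 and 1.49, and the CCR8+ values were 1.43, 1.44, 1.46 and 1.47. The ratio was lower in the CCR8+ library in 4 of 4 numbers, with means of 1.48 ± 0.0244 in CCR8- and 1.45 ± 0.0208 in CCR8+ cells (SD, n = 4 each, exact two-sided permutation p = 0.143). The groups overlapped only through CCR8- replicate 1, the lowest CCR8- library. Without it the lowest CCR8- ratio was 1.484 and the highest CCR8+ ratio 1.471, with an exact permutation p of 0.0571, the smallest that 3 against 4 libraries allow.

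No ribosomal protein gene passed the call, an adjusted p under 0.05 with a fold above 3, in the limma fit on log2(normalized count + 1) over all genes, and neither did any other (0 of 11032, 0%). Only 1 of 75 genes had an unadjusted p under 0.05, which was 1.33% against 562 of all genes tested (5.09%). The smallest adjusted p among the 75 was 0.838. With edgeR on the recovered reads 0 genes of all those tested were called, and with DESeq2 13 were (0.118%), none of them a ribosomal protein gene. The fold changes were small in both directions. They ran from -0.40 to 0.67 on the log2 scale in the large subunit and from -1.10 to 0.72 in the small subunit, whose lowest value belonged to the barely detected Rps4l.

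The median log2 fold change was 0.17 in the large subunit and 0.19 in the small subunit, or 1.13-fold and 1.14-fold, beside 0.04 over all genes tested. In the large subunit 39 of 44 genes and in the small subunit 25 of 31 had a mean difference above 0, together 85.3% against 52.4% of all genes. These genes moved together by library, so their signs are not independent of each other. With libraries scaled to equal totals the count fell to 55 of 75 (73.3%), and with quantile scaling to 50 of 75 (66.7%). The share of all genes above 0 under these scalings is not given here. With equal totals the median of all genes fell as well, to -0.03, beside 0.10 and 0.12 in the large and small subunit. Without CCR8- replicate 1 the subunit medians were 0.14 and 0.10, beside -0.08 over all genes, with 59 of 75 genes above 0.

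The same-numbered libraries gave this pattern gene by gene. The median log2 difference of the large subunit genes was 0.04, 0.05, 0.76 and -0.14 for numbers 1 to 4, and that of the small subunit genes 0.14, 0.08, 0.75 and -0.16. In number 3, 74 of 75 genes were higher in the CCR8+ library, and in number 4 only 10 were. Without CCR8- replicate 3 the medians of the unpaired fit were 0.09 and 0.11, with 49 of 75 genes above 0. In 4 of 4 numbers 5 genes were higher (6.67%, against 8.44% of all genes), among them Rps27l, Rps15a and Rpl15, and 0 were lower in 4 of 4 (against 8.1%).

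**Figure D2:**
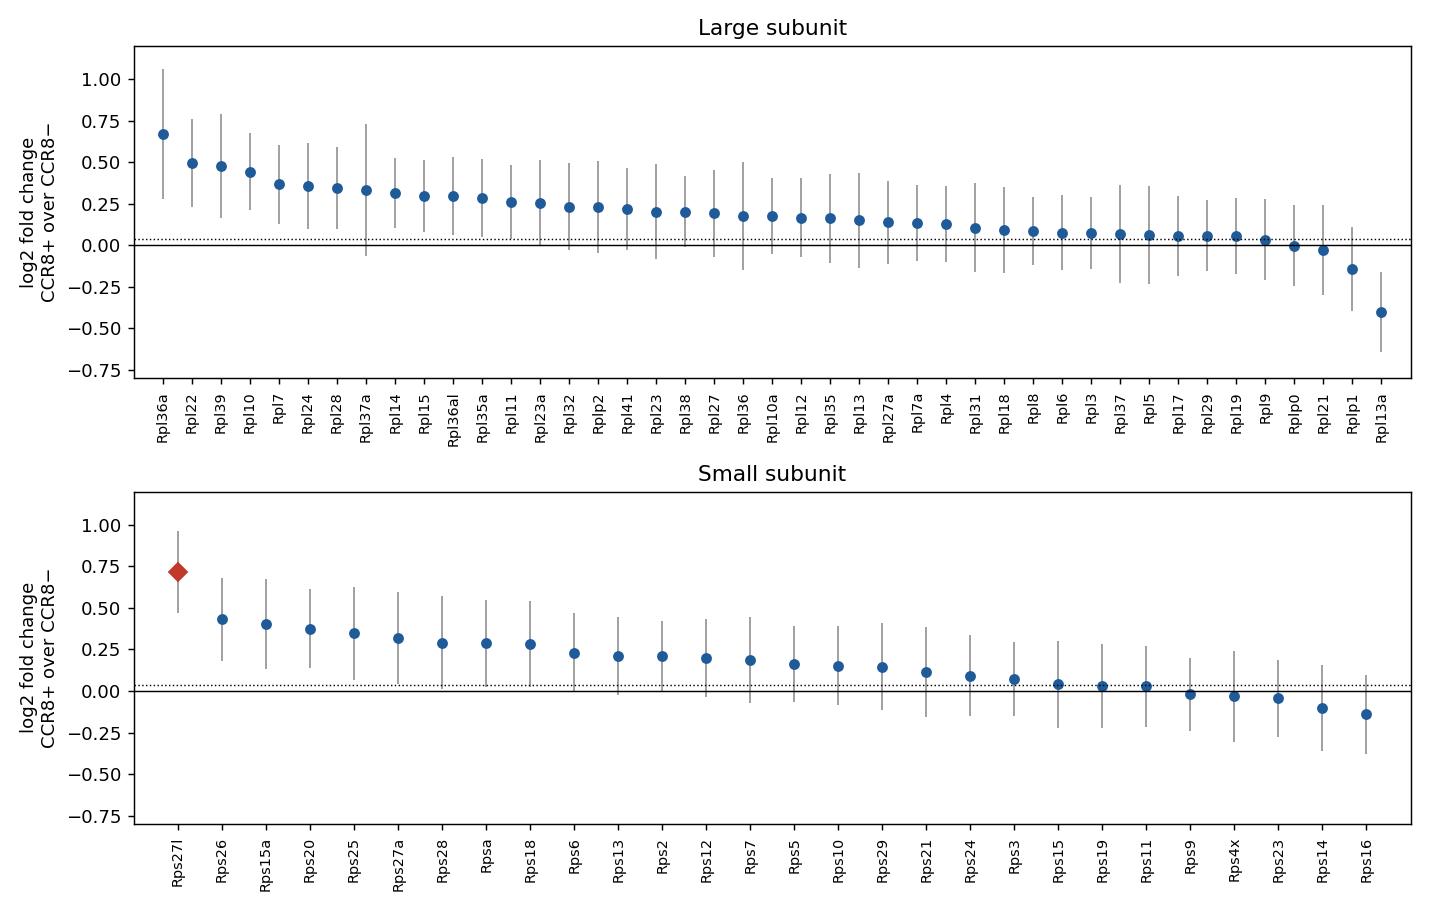
log2 fold change of CCR8+ over CCR8- cells (y axis) for large subunit genes (upper) and small subunit genes (lower) in order of size, with bars of 1 SE from limma. The solid line is 0, the dotted line is the median of all genes at 0.04, and the red diamond is Rps27l, the gene without overlap between groups. Rps4l, at -1.10 with an SE of 2.21, is left out.

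The 74 genes other than Rps4l shared their high and low libraries. CCR8- replicate 4 was the highest library for 36 of them and CCR8+ replicate 3 for 35. The lowest library was CCR8- replicate 1 for 32, CCR8- replicate 3 for 30 and CCR8+ replicate 1 for 10. The median deviation of the large subunit genes from their own mean was -0.21, -0.10, -0.38 and 0.39 in CCR8- replicates and -0.23, -0.02, 0.40 and 0.24 in CCR8+ replicates, in log2 units. For the small subunit it was -0.28, -0.11, -0.35 and 0.39, and -0.20, -0.01, 0.38 and 0.22. Both subunits therefore placed the libraries in nearly the same order. The median ratio of a gene's highest to its lowest library was 1.94, with a range from 1.40 to 4.84.

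Ribosomal protein genes were tighter than the rest of the table, with a median SD within groups of 0.33 in log2 units against 0.83 over all genes tested. Many of the other genes had low counts, and the comparison was not matched for level.

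**Figure D3:**
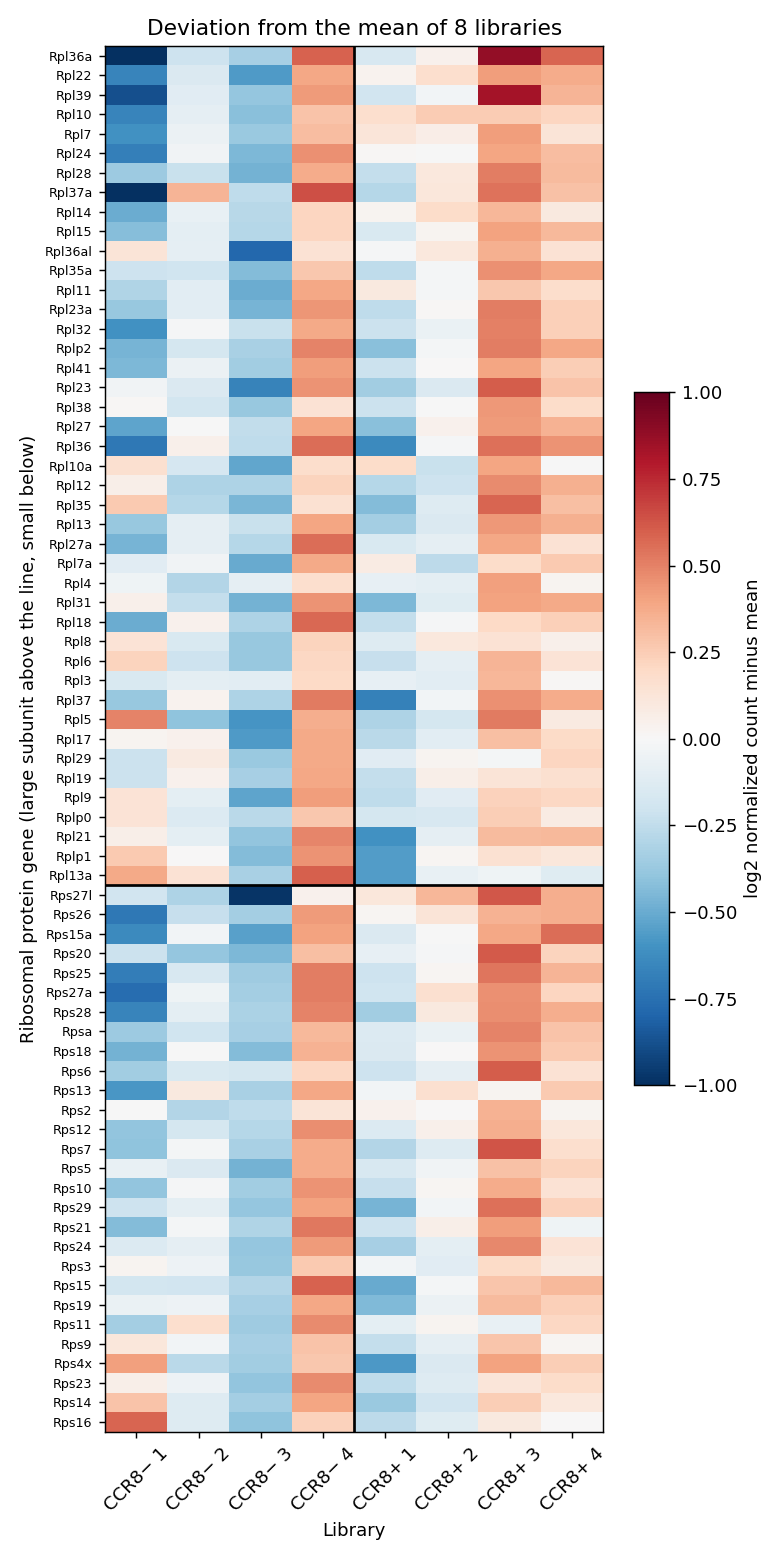
Each row is a ribosomal protein gene, large subunit above the black line and small subunit below, each ordered by fold change, and each column a library. Color gives log2(normalized count + 1) minus the mean of the gene over 8 libraries, from -1 (blue) to 1 (red). Columns CCR8- 4 and CCR8+ 3 are red over most rows, CCR8- 3 is blue, and CCR8- 1 mixes strong blue and red.

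Rps27l was the only gene whose groups did not overlap (1.33% of 75, against 2.37% of all genes that were higher in CCR8+ cells without overlap). No ribosomal protein gene was lower without overlap, against 2.03% of all genes. Rps27l encodes a close copy of the small subunit protein made from Rps27 and is known as a target of p53. Its normalized counts were 2353, 2176, 1364 and 2767 in CCR8- replicates and 2904, 3391, 4139 and 3468 in CCR8+ replicates. The CCR8+ libraries all lay above the highest CCR8- library, with a gap that was narrow between CCR8+ replicate 1 and CCR8- replicate 4. The log2 fold change was 0.72 (SE 0.25, 1.64-fold), with an exact two-sided permutation p of 0.0286, the smallest that 70 assignments allow, and an adjusted p of 0.838 in limma. By number, the log2 differences were 0.30, 0.64, 1.60 and 0.33. DESeq2 on the recovered reads gave an adjusted p of 0.281. Without CCR8- replicate 1 the log2 fold change was 0.77 (SE 0.26). Rps27 itself was not analysed here.

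Rps26 and Rps15a were also among the small subunit genes with high fold changes. Rps26, which contacts mRNA upstream of the start codon near the exit channel, had 2347, 3288, 3049 and 5175 normalized counts in CCR8- and 3912, 4207, 4911 and 4970 in CCR8+ replicates. CCR8- replicate 4 was the highest library and the other 3 CCR8- libraries lay below all CCR8+ libraries. Its log2 fold change was 0.43 (SE 0.25, exact permutation p = 0.171), and 0.26 without CCR8- replicate 1, its lowest library. Rps15a, at 0.40 (SE 0.27) and 0.26 without that library, also overlapped between groups.

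At the other end of the small subunit were Rps16, whose tail reaches the bound tRNA, and Rps14, of the platform. Rps16 had 10021, 6110, 5071 and 7864 normalized counts in CCR8- and 5588, 6141, 7179 and 6697 in CCR8+ replicates. CCR8- replicate 1 alone was the highest of the series, and the log2 fold change turned from -0.14 (SE 0.24) with that library to 0.03 without it. Rps14 had a log2 fold change of -0.10 (SE 0.26) and -0.03 without CCR8- replicate 1. Rps4l was barely detected, at 0, 75.7, 10.5 and 89.7 normalized counts in CCR8- and 0, 195, 0 and 18.3 in CCR8+ replicates, so that its fitted value of -1.10 (SE 2.21), or -2.46 without CCR8- replicate 1, carried no direction. Linear means of Rps4l went the other way, at 43.99 and 53.3. Its X-linked relative Rps4x had means of 8375 ± 2184 and 8253 ± 2355 (SD, n = 4).

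Among large subunit genes the highest fold changes belonged to Rpl36a, Rpl22 and Rpl39. Rpl36a had 647, 1480, 1358 and 2567 normalized counts in CCR8- and 1527, 1757, 3135 and 2550 in CCR8+ replicates. The groups overlapped widely, and the low end was CCR8- replicate 1. Its log2 fold change was 0.67 (SE 0.39, exact permutation p = 0.171), and 0.32 (SE 0.31) without that library. The autosomal copy Rpl36al had 5109 normalized counts in that library, near the high end of its range from 2713 to 5960, and the ratio of Rpl36a to Rpl36al counts was 0.127 there against 0.329 to 0.526 in the other 7. Rpl39, a small protein that lines the exit tunnel, had a log2 fold change of 0.48 (SE 0.31) and 0.26 without CCR8- replicate 1.

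Rpl22 is needed for the development of conventional αβ T cells and is not essential for translation as such. Its normalized counts were 1018, 1459, 1089 and 2109 in CCR8- and 1653, 1811, 2154 and 2081 in CCR8+ replicates. The CCR8+ libraries were close together and CCR8- replicate 4 lay among them, with a log2 fold change of 0.49 (SE 0.26, exact permutation p = 0.143) and 0.35 without CCR8- replicate 1. Its paralog Rpl22l1 had 1739, 1208, 1158 and 1976 normalized counts in CCR8- and 1122, 1736, 2138 and 1368 in CCR8+ replicates, without a common direction. The ratio of Rpl22l1 to Rpl22 counts was 1.71 in CCR8- replicate 1 and between 0.657 and 1.06 in the other 7 libraries.

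Rpl10, which joins the large subunit late in its assembly and lies near the peptidyl transferase center, had 5576, 8274, 6610 and 10737 normalized counts in CCR8- and 9895, 10498, 10505 and 10256 in CCR8+ replicates. The CCR8+ libraries lay within a narrow band, and of the CCR8- libraries replicate 4 alone lay above it and the other 3 below. The log2 fold change was 0.44 (SE 0.23, exact permutation p = 0.143), and 0.30 (SE 0.21) without CCR8- replicate 1. Rpl15, the large subunit gene that was higher in 4 of 4 numbers, had a log2 fold change of 0.30 (SE 0.22).

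Rpl13a went the other way. It is also known for a role outside the ribosome, in a complex that represses inflammatory mRNAs after interferon-γ. Its normalized counts were 10010, 8477, 6132 and 11623 in CCR8- and 5208, 7299, 7452 and 7056 in CCR8+ replicates. CCR8- replicate 3 lay within the CCR8+ range, and the other 3 CCR8- libraries lay above all CCR8+ libraries. The log2 fold change was -0.40 (SE 0.24, exact permutation p = 0.171, limma adjusted p = 0.838), and -0.34 without CCR8- replicate 1. By number the log2 differences were -0.94, -0.22, 0.28 and -0.72. Rplp1, at -0.14 (SE 0.25) and -0.08 without CCR8- replicate 1, followed it and overlapped widely.

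**Figure D4:**
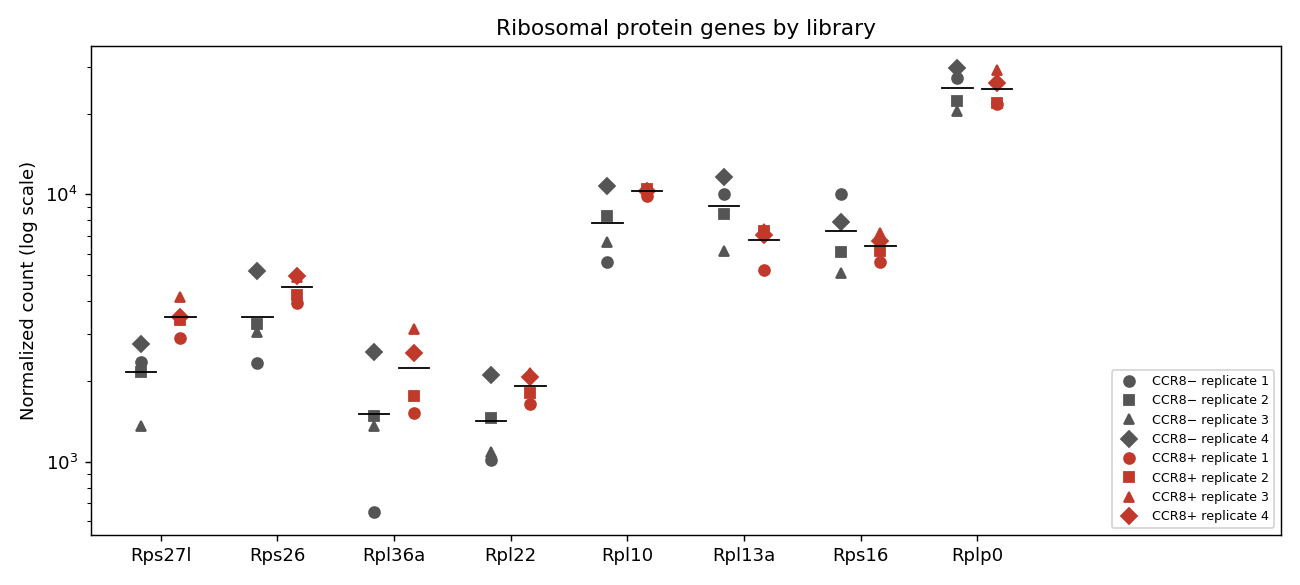
Normalized counts (y axis, log scale) of 8 ribosomal protein genes in CCR8- (gray) and CCR8+ (red) libraries, with a symbol for each replicate number and a black line at each mean of 4 libraries. Rps27l is the gene without overlap, the CCR8+ libraries of Rpl10 fall in a narrow band from 9895 to 10505, and CCR8- replicate 1 is low for Rpl36a and high for Rps16.

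Proteins of the stalk, which recruits translation factors to the ribosome, are encoded by Rplp0, Rplp1 and Rplp2. Rplp0 had 27120, 22408, 20466 and 29631 normalized counts in CCR8- and 21803, 22011, 29260 and 26063 in CCR8+ replicates. Its group means, 24906 ± 4210 and 24784 ± 3571 (SD, n = 4), were far closer than the spread. Rplp2 had means of 5631 ± 1840 and 6583 ± 1804. Rpl5 and Rpl11, which carry the smallest ribosomal RNA into the large subunit and hold back the p53 regulator Mdm2 when free, had means of 8264 ± 3002 and 8402 ± 2241, and of 4625 ± 1288 and 5407 ± 461. None of these differences reached the SD of the CCR8- group, while that of Rpl11 was above the SD of its CCR8+ group.

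For the small subunit genes with known roles named here, the groups differed by less than the larger of their SDs. Rps6, the substrate of the S6 kinases downstream of mTOR, had means of 10720 ± 1808 and 12756 ± 3367 normalized counts in CCR8- and CCR8+ cells (SD, n = 4). Rps19, which is mutated in Diamond-Blackfan anemia, had means of 15061 ± 3220 and 15433 ± 3434, and Rps3, at the mRNA entry site, 17243 ± 3075 and 17950 ± 1678. Rps27a, made as a fusion with ubiquitin, had 5708 ± 2168 and 6831 ± 1245. Rpsa, also called the laminin receptor, had 20076 ± 4849 and 24409 ± 5156.

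Levels of these genes differed far more from each other than between the populations. By normalized counts, which also depend on transcript length, high means over 8 libraries were those of Rpl13 (28034), Rplp0 (24845) and Rpl4 (19986) in the large subunit and of Rpsa (22243), Rps14 (18700), Rps3 (17596) and Rps18 (16454) in the small subunit. The lowest were those of Rpl22 (1672) and Rpl36a (1877), and of Rps4l (48.6) and Rps21 (1336). Divided by coding length, the level was 4354 per kilobase for Rpl22, the lowest of 43 large subunit genes, and 44287 for Rpl13, with a median of 14087 over the 43, and it ran from 5367 for Rps21 to 41280 for Rps14 among 30 small subunit genes, with a median of 14348. Rpl41, whose coding length of 75 bases is a small part of its mRNA, was left out of these values. Many ribosomal protein genes have near-identical processed pseudogenes in the mouse genome, and since uniquely mapped reads alone were kept, an unknown part of their reads is missing and levels between genes are uncertain.

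To compare members with each other apart from the shift of the whole set, each library was scaled to its ribosomal protein total, which moved the median log2 fold change of all genes from 0.04 to -0.09. No gene was called, with a smallest adjusted p of 0.896 among the 75. An unadjusted p under 0.05 was reached by 2 of 75 genes, against 3.95% of all genes, namely Rps27l at 0.59 (SE 0.22) and Rpl13a at -0.53 (SE 0.21) on the log2 scale. Groups did not overlap for 7 of 75 genes, against 3.2% of all genes in either direction. Of these, 5 were higher in CCR8+ cells, among them Rps27l, Rps20 and Rpl22, and Rpl13a and Rps14 were lower. Rps20 was named because its groups did not overlap on this scale. Without CCR8- replicate 1 Rps27l was at 0.68 (SE 0.20) and Rpl13a at -0.43 (SE 0.19). The groups then did not overlap for 10 of 75 genes, against 5.54% of all genes, with the same limit.

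Composition of the set in CCR8- replicate 1 stood apart. After scaling to the same total, the SD over 74 genes of the log2 deviation from the mean profile was 0.388 in that library and 0.115 to 0.195 in the other 7. Rpl37a (-1.23), Rpl36a (-1.23) and Rpl39 (-0.71) were the lowest in it, and Rps16 (0.75), Rpl5 (0.67), Rps4x (0.58) and Rpl13a (0.55) the highest. Across the 74 genes, the deviation in this library had a Pearson correlation of 0.354 with log2 coding length, given as a description since all genes share the library. The correlations in the other libraries lay between -0.408 and 0.236. Across the same genes, the log2 fold change had a correlation with log2 coding length of -0.278 with CCR8- replicate 1 and -0.093 without it. The part of coding length in the fold changes was not tested.

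Transcripts of other cell types varied between libraries as well. The 13 macrophage and monocyte genes summed to 36.4, 4817, 1553 and 88060 normalized counts in CCR8- and 30087, 19948, 3744 and 26968 in CCR8+ replicates. The highest sum was in CCR8- replicate 4, which also had the highest ribosomal protein share, and CCR8+ replicate 3, next in that share, had the lowest sum of the CCR8+ libraries. The 7 melanoma genes summed to between 105 and 17389 in CCR8- and between 232 and 21841 in CCR8+ libraries. The 8 genes of CD8 T and NK cells summed to 3948 to 9127 and 2421 to 2941, without overlap. Gzma took a large part of the CCR8- sums, at 1489 to 3057 normalized counts against 406 to 1586 in CCR8+ libraries. None of the 7 genes tested in this list, Gzma among them, was without overlap on its own. The 5 listed B cell genes summed to 73.5 to 833 and 0 to 532, with 2 of the 5 at 0 throughout, Ms4a1 among them. The 4 dendritic cell genes summed to 172 to 545 and 371 to 692. The 12 CD4 T cell genes were above 0 in every library, at 105051 to 145774 and 107549 to 148392. No gene of these lists was called in limma, and their part in the ribosomal protein values was not tested.

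Other genes of the translation machinery were taken from lists. Listed genes of ribosomal proteins and of their relatives whose names fall outside the rule moved little, with the exception of Rpl7l1. Fau, which encodes a ribosomal protein fused to a ubiquitin-like domain, had means of 6155 ± 1698 and 5791 ± 842 normalized counts in CCR8- and CCR8+ cells (SD, n = 4). Gnb2l1, the scaffold protein RACK1 on the small subunit, had 10432 ± 2604 and 10404 ± 1623. Rpl7l1, a relative of Rpl7, had 1139, 1323, 1242 and 1229 normalized counts in CCR8- and 1720, 1741, 3094 and 1713 in CCR8+ replicates. The groups of Rpl7l1 did not overlap, and its log2 fold change was 0.70 (SE 0.24, exact permutation p = 0.0286, limma adjusted p = 0.838).

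Ribosome assembly factors included 4 genes without overlap, all higher in CCR8+ cells, among 44 tested (beside 2.37% of all genes). They were Nop16, Rrp1, Fbl and Gar1, and Fbl and Gar1 were named after their values were seen. Nop16, a nucleolar protein of large subunit assembly, had 238, 660, 721 and 801 normalized counts in CCR8- and 1096, 1202, 1672 and 1743 in CCR8+ replicates, with CCR8- replicate 1 lowest. Its log2 fold change was 1.35 (SE 0.39, limma adjusted p = 0.838), and 0.95 (SE 0.24) without that library. With libraries weighted by their quality in limma its adjusted p was 0.0320. Rrp1, at 0.64 (SE 0.22), Fbl, the methyltransferase fibrillarin, at 0.72 (SE 0.28), and Gar1, of the pseudouridylation complex, at 1.43 (SE 0.61), went to 0.49, 0.48 and 0.71 without it. Of the whole list 24 of 44 genes were above 0, with a median of 0.13, and 0.03 without CCR8- replicate 1. No gene was called in this list.

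Regulators upstream of ribosomal protein translation were mixed, with 10 of 18 above 0 and a median log2 fold change of 0.09, which turned to -0.01 with 8 of 18 above 0 without CCR8- replicate 1. Eif4ebp1, whose protein is a target of mTOR, had 503, 735, 400 and 1200 normalized counts in CCR8- and 1542, 1341, 1976 and 1556 in CCR8+ replicates. Its groups did not overlap, and its log2 fold change was 1.29 (SE 0.34, exact permutation p = 0.0286, limma adjusted p = 0.829). Myc, which drives ribosome production in activated T cells, had 213, 462, 1575 and 463 normalized counts in CCR8- and 1589, 975, 2455 and 711 in CCR8+ replicates. It was higher in 4 of 4 numbers, while CCR8- replicate 3 lay within the CCR8+ range, and its log2 fold change was 1.31 (SE 0.57, exact permutation p = 0.143) and 0.88 without CCR8- replicate 1. Mtor was listed at 0 in CCR8- replicate 1 and had 109 to 243 normalized counts in the other CCR8- and 68.1 to 311 in the CCR8+ libraries. Larp1, which binds pyrimidine starts, had means of 1474 ± 459 and 1171 ± 460.

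Translation factors and other genes listed with pyrimidine starts share that feature of the ribosomal protein mRNAs. Of these, 13 of 17 were above 0 with a median of 0.16, close to those of the subunits, and none was without overlap. Without CCR8- replicate 1 the median was 0.13, with 13 above 0. Eif3h, at 0.39 (SE 0.19), and Npm1, at 0.41 (SE 0.21), had the lowest p-values of the list. Eef1a1 had 52554, 41367, 40982 and 47090 normalized counts in CCR8- and 47403, 40313, 64393 and 43105 in CCR8+ replicates, and Eef2 had means of 13186 ± 1456 and 13479 ± 2613. Of the other initiation and elongation factors 21 of 22 were above 0, with a median of 0.24, and 0.30 without CCR8- replicate 1. In that list 4 of 22 genes were higher in CCR8+ cells without overlap (beside 2.37% of all genes), namely Eif1ax at 0.77 (SE 0.27), Eif3c at 0.56 (SE 0.20), Eif3i at 0.47 (SE 0.22) and Eif2s3x at 0.52 (SE 0.40), and the last 2 were named after their values were seen. Without CCR8- replicate 1 these were 0.53, 0.50, 0.33 and 0.32. Mitochondrial ribosomal proteins had 48 of 77 genes above 0 and a median of 0.09, and 58 and 0.15 without that library. None of the genes in these lists was called in limma.

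**Figure D5:**
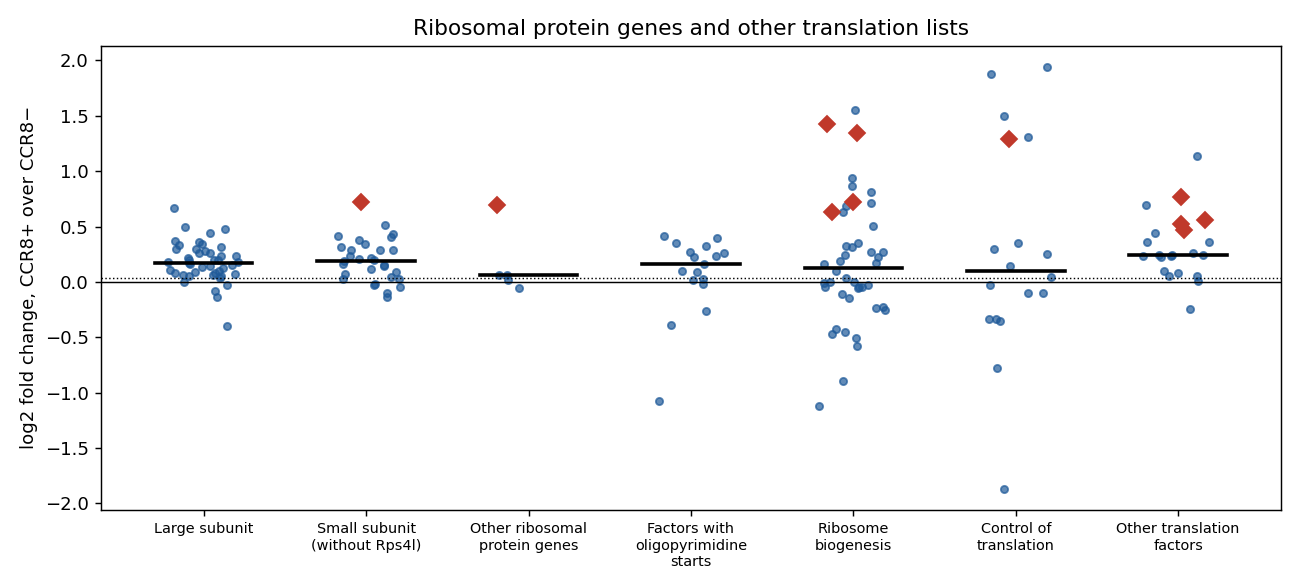
log2 fold change of CCR8+ over CCR8- cells (y axis) for each gene of the 2 subunits and of 5 further lists, with a thick line at each list's median, 0 as the solid line and the median of all genes as the dotted line. Red diamonds are genes whose groups did not overlap. The subunit genes lie close around medians of 0.17 and 0.19, and the assembly factors spread more widely. Rps4l is left out, and the median drawn for the small subunit is without it.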

How the data were processed

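Bulk RNA-Seq was done on 4 CCR8+ and 4 CCR8- Tconv libraries sorted by FACS, prepared with a low-input cDNA kit. Per the study's methods and the submitters' processing notes, the authors checked reads with FastQC, trimmed them with Cutadapt, aligned them with hisat2 to NCBIM37 (mm9), kept uniquely mapped reads and scaled libraries with intergenic reads. HTSeq and DESeq2 are also named. Tool versions and strand settings were not given in the sources used here. The deposited values are a normalized signal per gene, called FPM by the authors, although library totals ran from 11469410 to 14394101. All values (100%) were whole multiples of the value of 1 read in their library, within 0.000152 reads, so read counts were recovered. Library size, from 12067780 to 17802628 recovered reads, sets the counting error of the reads alone, and 3 reads correspond to 2.21 to 3.42 normalized counts.

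Groups came from the sample labels. All genes with a mean of at least 10 were fitted on log2(normalized count + 1) with limma 3.58.1 (trend, R 4.3.3), adjusted after Benjamini and Hochberg. A fold change on this scale understates that of low genes. Calls required a fold above 3 and an adjusted p under 0.05. Alternatives used edgeR 4.0.16 (quasi-likelihood) and DESeq2 1.42.0 on recovered reads, other scalings, pseudocounts and filters, a replicate block and left-out libraries. Exact two-sided permutation tests over 70 assignments were run for single genes. The fits were also run on simulated data with planted changes far larger than those of the ribosomal protein genes. That run does not bear on shifts of their size.

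The members and lists were chosen with earlier results of these data known. Genes named in the text were, in each subunit, the 4 highest and 2 lowest means and the 3 highest and 3 lowest fold changes, then genes without overlap between groups or with an adjusted p under 0.05 in any fit, genes with a known role or a duplicate, and from each other list its best-known genes and the 2 with the lowest p. Rpl26, Rpl30, Rpl34, Rps3a, Rps27, Rpl3l, Rpl10l and Rpl39l were not analysed here, and a few genes named by this rule are not reported by name in the text or drawn singly with a label. Coding lengths came from GENCODE annotation on GRCm38, and start windows from RefSeq on GRCm38.p6, for sequence and length only. The symbols matched 55 members with a start window and 74 with a coding length.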

Additional observations from a re-analysis of the deposited data

Results flagged for a closer look

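In a group of 4, a library was singled out where its gap to the nearest other library took most of the range of the group by Dixon's test, whose limit chance passes in about 5% of groups. Over 110 groups of values given in the report, 6 values passed it. The small subunit share of 2.32% in CCR8- replicate 4 stood above the other 3 CCR8- libraries, at 1.70 to 1.80%. Rpl7l1 had 3094 normalized counts in CCR8+ replicate 3 and 1713 to 1741 in the other 3, and its ratio to Rpl7 counts was 0.230 there against 0.156 to 0.165. Fbl had 3681 normalized counts in the same library and 2470 to 2571 in the other CCR8+ libraries, and Eif3i had 4044 against 3019 to 3082. Rps4l had 195 normalized counts in CCR8+ replicate 2 and 0 to 18.3 in the others.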

How the results depend on the processing

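No ribosomal protein gene was called in limma, edgeR or DESeq2 under any of the 22 alternatives, and none in the fit within the ribosomal protein total, whose alternatives were chosen after seeing the data, as was the use of library weights for these genes. Over all genes tested 0 were called in the reported fit, 1 with the replicate block, 2 without the trend, 52 with library quality weights, 13 with DESeq2 and 79 with DESeq2 and the replicate block. The cause was not tested. The subunit medians stayed above 0 throughout. Leaving out 1 library gave 0.06 (CCR8+ replicate 3) to 0.30 (CCR8- replicate 4) in the large subunit. In the small subunit it gave 0.07 to 0.33. The other alternatives gave 0.08 to 0.17 and 0.08 to 0.19, apart from scaling to the ribosomal protein total. That scaling takes out most of a shift of the whole set, so its 0.04 and 0.06 do not measure one. The difference in the large subunit share (CCR8+ minus CCR8-, 0.0907 percentage points) turned to -0.0224 without CCR8- replicate 1 and -0.0432 without CCR8+ replicate 3, and reached 0.317 without CCR8- replicate 4, while that of the small subunit ran from 0.0110 to 0.243. The difference in the ratio of large to small subunit counts stayed below 0 with each library left out, at -0.0392 to -0.0194 (exact permutation p from 0.0571 to 0.314), an alternative chosen after seeing the data. The median of the regulators of ribosomal protein translation turned to -0.0089 without CCR8- replicate 1. The gene-level direction turned for Rps16 without CCR8- replicate 1, over a leave-one-out range of -0.30 to 0.029, and with library weights (0.025), for Rplp1 without CCR8+ replicate 1 (-0.31 to 0.023), for Rps14 without CCR8- replicate 4 or CCR8+ replicate 1 (-0.23 to 0.011) and with weights (0.010), and for Rps4l with edgeR (0.29) and DESeq2 (0.28). Nop16 passed an adjusted p under 0.05 with library weights (1.05, adjusted p = 0.0320) and with DESeq2 and the replicate block (1.34, adjusted p = 0.0294).

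The deviations of same-numbered libraries correlated weakly, at 0.068, 0.138, 0.108 and 0.217 for numbers 1 to 4. Differently numbered libraries gave -0.171 to 0.101, a range that holds the value of number 1. Of 8 libraries, 7 correlated best with their own number, a hint from the data and not from the design. With the replicate block the subunit medians were 0.17 and 0.19 in limma, and the adjusted p of Rps27l was 0.758. With 4 libraries a group and a median SE of 0.25 in log2 units over the 75 genes, shifts of the size of the subunit medians could not be detected gene by gene.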
